A study of Mus musculus with 10 samples.

Results

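Mpo, Prtn3, Ctsg and Elane are the genes of 4 enzymes of the primary (azurophil) granules of neutrophils. They were chosen by name, with the differences between hybrid and unfused cells in these arrays already known, and make up 4 of the 35042 gene names on the array and 5 of its 55681 probes, since Mpo has 2 probes. All 4 genes passed the filter on dim probes. Only 3 of them encode proteases: Prtn3 (proteinase 3), Ctsg (cathepsin G) and Elane (neutrophil elastase) are serine proteases, whereas Mpo encodes myeloperoxidase, a haem peroxidase that makes hypochlorous acid.

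Primary granules form at the promyelocyte stage, when granulocyte progenitors transcribe these genes strongly, and transcription falls as the cells mature, so that circulating neutrophils carry the proteins but little of the message. The serine proteases are made as inactive precursors that cathepsin C (Ctsc) trims, are packed on the proteoglycan serglycin (Srgn), and are held in check by inhibitors such as Serpinb1a and Slpi. Cebpa, Spi1 (PU.1), Myb, Runx1 and Gfi1 are regulators of their transcription in myeloid progenitors.

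The measured RNA came from graft cells sorted out of the midbrain of mice treated with MPTP, a neurotoxin of dopaminergic neurons. Lineage-negative haematopoietic stem and progenitor cells had been grafted on 1 side, 3 days after the last MPTP injection, and the cells were sorted 1 week later. R26Y hybrids (RFP+YFP+) came from MPTP-treated R26Y reporter mice that received Cre/RFP graft cells, and GFAP-Cre hybrids and FoxA2-Cre hybrids (both RFP+YFP+) came from MPTP-treated GFAP-Cre and FoxA2-Cre mice that received R26Y graft cells. The unfused cells (RFP+) were 1 pool of R26Y and GFAP-Cre recipients and 1 group from FoxA2-Cre recipients. Ages were not among the labels used here, and no group came from a brain without MPTP or from cells before grafting. In Cre recipients YFP appears only after fusion with a cell that expresses Cre, so the red-only cells there can hold graft cells fused with other recipient cells.

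Each of the 5 groups had 2 replicates, each a pool of 2 mice. Spots well above background made up 64.3% to 84.1% of each R26Y hybrid array, 81.4% to 82.4% of each GFAP-Cre hybrid array and 82.8% to 86.7% of each pooled unfused array, against 19.8% to 34.6% for FoxA2-Cre hybrids and 34.8% to 49.2% for FoxA2-Cre unfused cells. The 6 R26Y and GFAP-Cre arrays lay on 1 slide and the 4 FoxA2-Cre arrays on the other, so recipient and slide cannot be told apart. On the FoxA2-Cre slide the hybrids lay in one row and the unfused cells in the other, so cell type and row cannot be told apart there either. Spearman's rho across genes between the 2 replicates was 0.678 in R26Y hybrids, 0.904 in GFAP-Cre hybrids, 0.671 in FoxA2-Cre hybrids, 0.951 in pooled unfused cells and 0.719 in FoxA2-Cre unfused cells. Levels are log2 signals relative to the 75th percentile of the array, where 0 is that percentile. Levels of different probes are not compared with each other, except to choose the brightest probe of a gene. The marker sums add signals of different probes, so the brightest probes weigh most in them. In sorted bulk RNA, fewer cells of a type and less RNA per cell cannot be told apart.

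The probe sequences are shown because the 2 Mpo probes gave different results and because the probes differ in how near they lie to the 3′ end of the message. All are read 5′ to 3′ from the array design on build mm9. The Mpo 3′ probe (NM_010824, transcript position 2471) matches chr11:87617840-87617899 on the + strand, the Mpo coding probe (AY500847, position 1629) matches chr11:87615121-87615180 on the + strand, and the Prtn3 probe (NM_011178, position 330) spans 817 bases at chr10:79343869-79344685 on the + strand, so that it crosses an intron. The Ctsg probe (NM_007800, position 865) matches chr14:56718795-56718854 on the - strand and the Elane probe (NM_015779, position 860) chr10:79350902-79350961 on the + strand. Capitals mark AATAAA, the letters of the polyadenylation signal, and of the probes near a 3′ end only bases 31 to 60 are given.
Mpo coding probe, whole: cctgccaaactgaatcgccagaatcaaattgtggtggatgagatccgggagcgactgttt
Mpo 3′ probe, bases 31 to 60: tatttgtacctgaggttcacactAATAAAa
Prtn3 probe, whole: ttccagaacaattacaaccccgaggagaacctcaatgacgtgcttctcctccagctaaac
Ctsg probe, bases 31 to 60: ctaactccctgtctcaggcacagacctagg
Elane probe, bases 31 to 60: ttactacAATAAAagcagcctttgttttgt
The Mpo 3′ probe and the Elane probe hold the signal and therefore end in the last stretch of the message, and the coding probe and the Prtn3 probe lie further upstream. None of the 5 shared a run of 20 bases with a probe of another gene on the array (0 for each). In the RefSeq gene order of GRCm38.p6, Prtn3 and Elane are direct neighbours on chromosome 10 and are followed by Cfd, the gene of complement factor D, while Mpo lies between Tspoap1 and the lactoperoxidase gene Lpo on chromosome 11 and Ctsg between the protease genes Mcpt8 and Gzme on chromosome 14.

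Mpo was the gene of the set with the widest gap between hybrid and unfused cells. On the 3′ probe, which is the brighter one and stands for the gene, the level was -5.85 and -7.35 in R26Y hybrids and -6.03 and -6.27 in GFAP-Cre hybrids, against -0.70 and -3.89 in pooled unfused cells. In FoxA2-Cre hybrids it was -6.77 and -5.66, against 1.79 and 1.55 in FoxA2-Cre unfused cells. Every hybrid array therefore lay below both unfused arrays of its own slide, and the 2 pooled unfused arrays differed from each other by more than the hybrid arrays did. The probe was well above background on 3 of 6 hybrid arrays (replicate 1 of the R26Y hybrids and both GFAP-Cre hybrids) and on 4 of 4 unfused arrays.

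Since Mpo was chosen for this difference, its size is a description and carries no test. The log2 difference was -4.31 ± 1.05 (SE) for R26Y hybrids, which is 19.8-fold lower than in pooled unfused cells, and -3.86 ± 1.05 (SE) for GFAP-Cre hybrids, which is 14.5-fold lower. For FoxA2-Cre hybrids it was -7.89 ± 1.05 (SE). Because neither FoxA2-Cre hybrid array was well above background, that difference is bounded, at least 60.5-fold lower than in FoxA2-Cre unfused cells. The pooled unfused arrays set much of the size on the other slide: without replicate 1 of the pooled unfused cells the difference was -2.71 for R26Y hybrids and -2.26 for GFAP-Cre hybrids, and without replicate 2 it was -5.91 and -5.46. The file of FoxA2-Cre unfused replicate 2 carries in its name the sample number of R26Y hybrid replicate 2, and its label was followed. Without that array the FoxA2-Cre difference was -8.01.

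**Figure D1:**
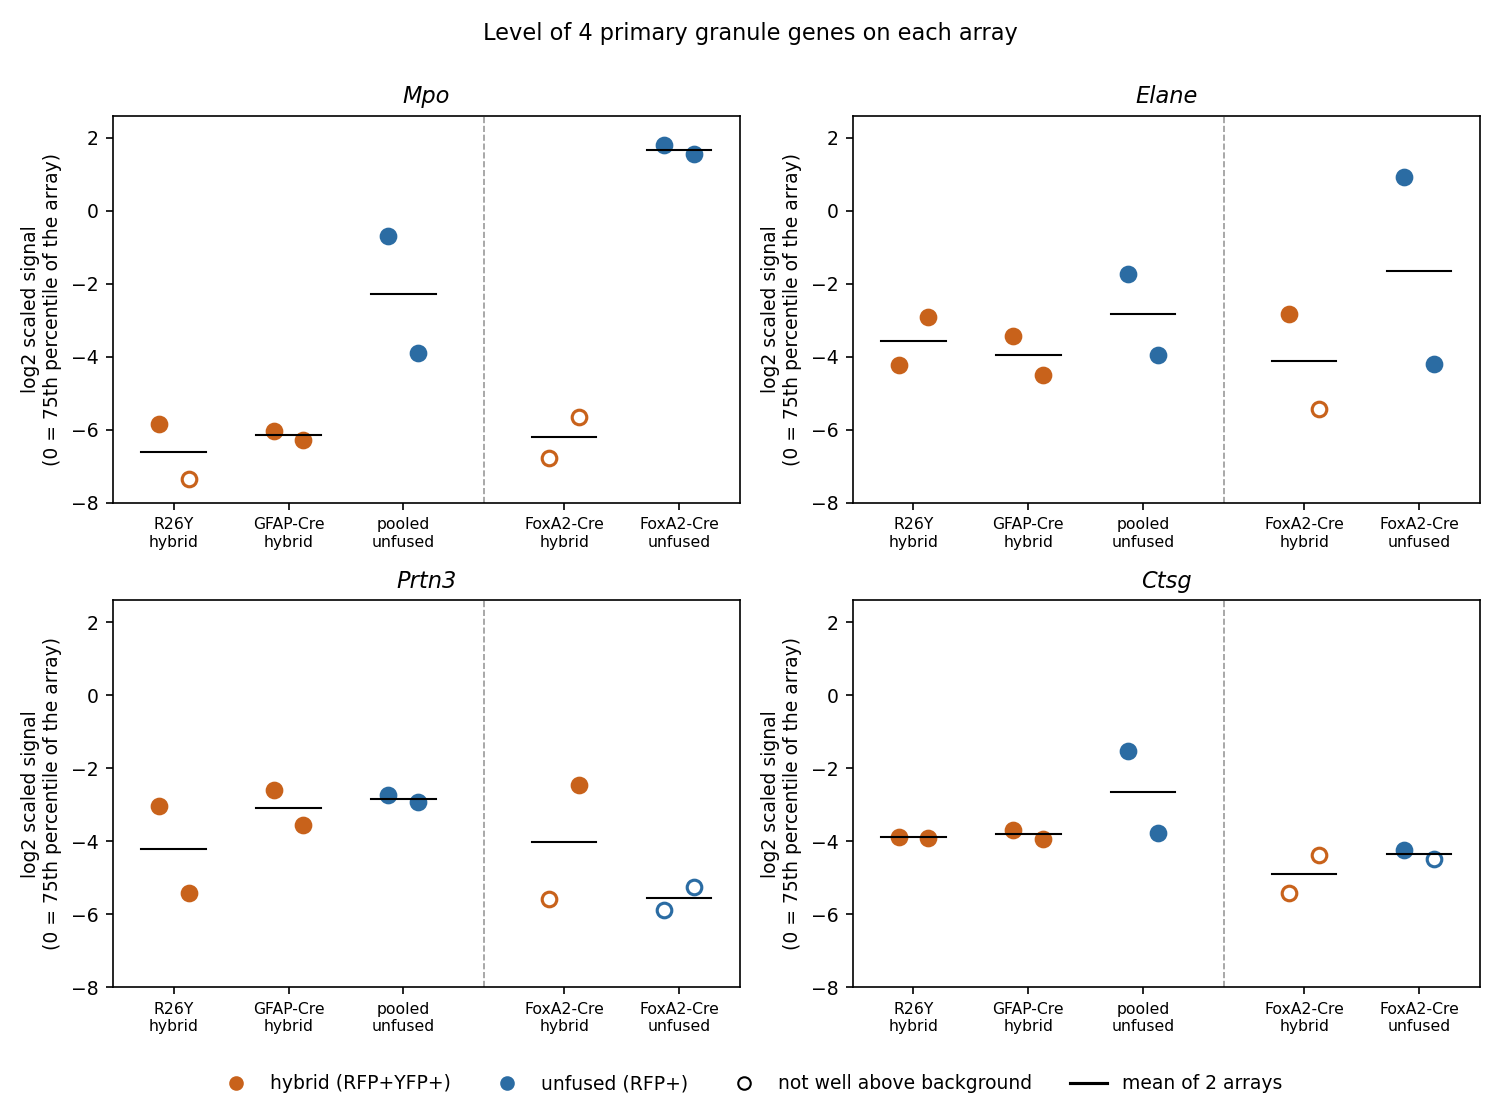
Log2 scaled signal (vertical axis, 0 is the 75th percentile of the array) of Mpo (3′ probe), Elane, Prtn3 and Ctsg on each of the 10 arrays, hybrids in orange and unfused cells in blue, with bars at the mean of 2 arrays, open circles for spots not well above background and a dashed line between the 2 slides. The Mpo hybrid arrays lie between -7.35 and -5.66, all below the unfused arrays at -3.89 to 1.79, whereas for Elane, Prtn3 and Ctsg hybrid and unfused arrays reach into each other's range.

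The Mpo coding probe did not show the gap. Its level was -5.60 and -4.57 in R26Y hybrids and -4.74 and -5.39 in GFAP-Cre hybrids, against -6.01 and -5.38 in pooled unfused cells. In FoxA2-Cre hybrids it was -4.10 and -5.03, against -6.17 and -6.50 in FoxA2-Cre unfused cells. R26Y and GFAP-Cre hybrid arrays overlapped the pooled unfused arrays. FoxA2-Cre hybrids lay above their unfused cells on both arrays, as they did for 26.5% of all genes. On that slide only replicate 1 of the hybrids was well above background. The log2 difference was 0.61 ± 0.64 (SE) for R26Y hybrids, 0.63 ± 0.64 (SE) for GFAP-Cre hybrids and 1.77 ± 0.64 (SE) for FoxA2-Cre hybrids, the last giving no fold, since 3 of its 4 spots were near background. By mean level, the 2 probes of Mpo thus put hybrids and unfused cells in opposite order, and the mean of both probes put Mpo at -1.85, -1.62 and -3.06 in the R26Y, GFAP-Cre and FoxA2-Cre comparisons.

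A disagreement of this size between probes of 1 gene was uncommon on these arrays. Among 5583 genes with at least 2 probes that passed the filter, the median gap between a gene's highest and lowest log2 difference was 0.89 for R26Y hybrids, 0.61 for GFAP-Cre hybrids and 1.10 for FoxA2-Cre hybrids. The Mpo gap was 4.91, 4.48 and 9.65 in the same comparisons, and 0.519%, 0.179% and 0.125% of these genes had a gap at least as wide. Mpo was chosen for the difference on its 3′ probe, which makes up most of the gap, so these shares are a description and no test. In the FoxA2-Cre comparison most spots of the coding probe were near background. Probes that hold AATAAA, as the Mpo 3′ probe does, were 9.68% of the probes that passed. Their median log2 difference was -0.29 for R26Y hybrids, 0.019 for GFAP-Cre hybrids and 0.39 for FoxA2-Cre hybrids, against -0.30, 0.038 and 0.43 for probes without it. A difference below -3 was found for 1.99%, 0.352% and 4.62% of the probes with the signal, against 1.55%, 0.324% and 3.07% of those without. Nearness to the 3′ end was not tested as a source of the gap between the Mpo probes.

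**Figure D2:**
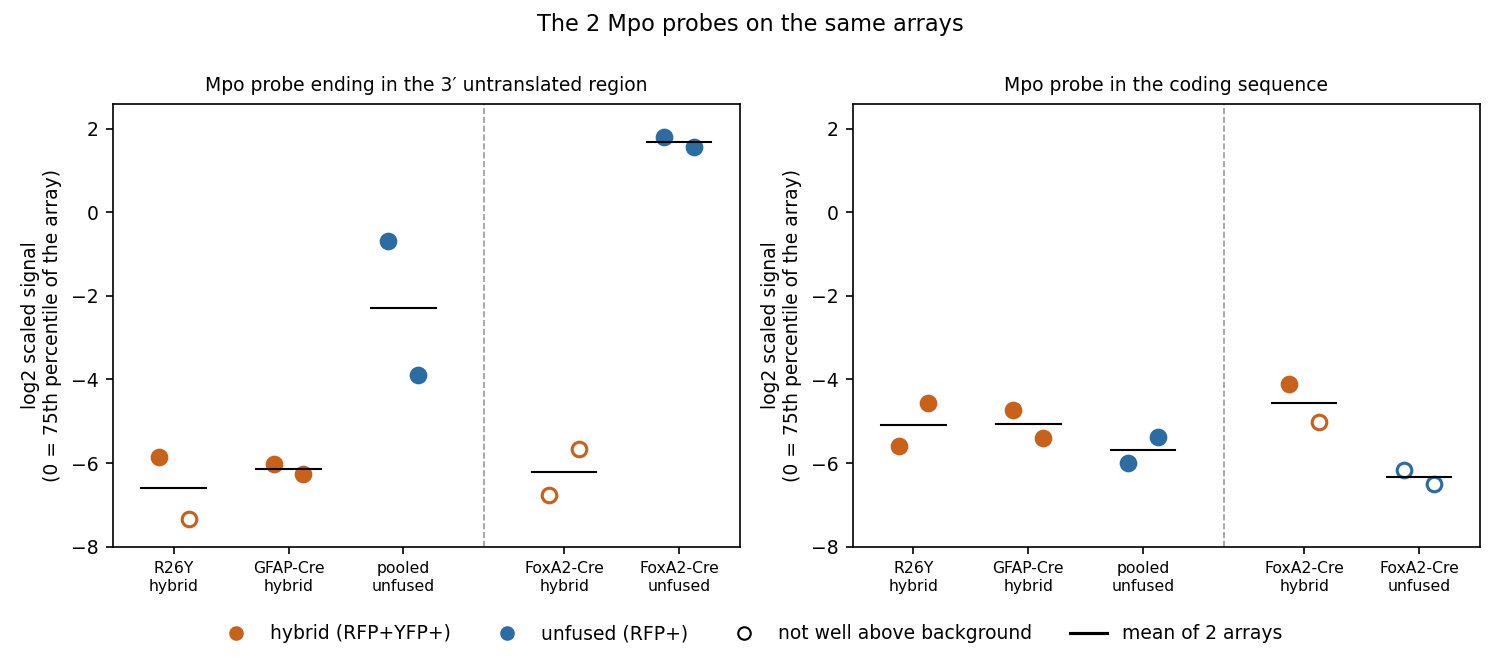
Log2 scaled signal (vertical axis) of the Mpo 3′ probe and the Mpo coding probe on the same 10 arrays, drawn as hybrids in orange and unfused cells in blue, with open circles where a spot was not well above background. FoxA2-Cre unfused arrays stand highest on the 3′ probe (1.55 and 1.79) and lowest on the coding probe (-6.50 and -6.17).

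Elane had no gap of this kind. Its level was -4.22 and -2.92 in R26Y hybrids and -3.44 and -4.50 in GFAP-Cre hybrids, against -1.73 and -3.95 in pooled unfused cells. It was -2.82 and -5.43 in FoxA2-Cre hybrids, against 0.91 and -4.20 in FoxA2-Cre unfused cells. In every comparison the arrays of both groups overlapped, because 1 unfused array was high and the other lay among the hybrids. The log2 differences were -0.73 for R26Y, -1.13 for GFAP-Cre and -2.48 for FoxA2-Cre hybrids, each with an SE of 1.68. Without replicate 1 of the FoxA2-Cre unfused cells the FoxA2-Cre difference was 0.077. Without replicate 1 of the pooled unfused cells the R26Y difference was 0.39 and the GFAP-Cre difference -0.016.

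Prtn3, whose gene lies next to Elane, did not follow it. Its level was -3.03 and -5.41 in R26Y hybrids and -2.60 and -3.57 in GFAP-Cre hybrids, against -2.73 and -2.94 in pooled unfused cells. It was -5.57 and -2.46 in FoxA2-Cre hybrids, against -5.88 and -5.25 in FoxA2-Cre unfused cells, where it was not well above background on either array. Both R26Y hybrid arrays lay below both pooled unfused arrays, while in GFAP-Cre and FoxA2-Cre hybrids the arrays of the groups overlapped. The log2 differences were -1.38 for R26Y, -0.25 for GFAP-Cre and 1.55 for FoxA2-Cre hybrids, each with an SE of 1.13, and the last gives no fold, since replicate 2 of the hybrids was the only one of its 4 spots well above background. Single arrays set these values: the R26Y difference was -0.19 without replicate 2 of the R26Y hybrids, and the FoxA2-Cre difference was -0.0072 without replicate 2 of the FoxA2-Cre hybrids.

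Ctsg, which mast cells also express, lay within a narrow range in R26Y and GFAP-Cre hybrids. Its level was -3.88 and -3.91 in R26Y hybrids and -3.68 and -3.93 in GFAP-Cre hybrids, against -1.53 and -3.77 in pooled unfused cells. It was -5.42 and -4.39 in FoxA2-Cre hybrids, neither well above background, against -4.24 and -4.48 in FoxA2-Cre unfused cells, of which replicate 1 was. R26Y hybrids lay below both pooled unfused arrays, GFAP-Cre hybrids overlapped them, and FoxA2-Cre hybrids overlapped their unfused cells. The log2 differences were -1.25 for R26Y, -1.16 for GFAP-Cre and -0.55 for FoxA2-Cre hybrids, each with an SE of 0.77. On the first slide they rest on 1 bright array, since without replicate 1 of the pooled unfused cells they were -0.13 for R26Y and -0.039 for GFAP-Cre hybrids.

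Counted over the 4 genes, both hybrid arrays lay below both unfused arrays for 3 genes in R26Y hybrids (Mpo, Prtn3 and Ctsg), as they did for 19.5% of all 32209 genes tested. In GFAP-Cre hybrids this held for 1 gene (Mpo) and for 14.4% of all genes, and in FoxA2-Cre hybrids for 1 gene (Mpo) and for 10.6% of all genes. The genes were chosen on these differences, so the counts are a description. For all genes the median log2 difference was -0.26 in R26Y, 0.035 in GFAP-Cre and 0.36 in FoxA2-Cre hybrids. With the Mpo coding probe in place of the 3′ probe, the counts were 2, 0 and 0.

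Most neutrophil markers lay lower in hybrids on the same arrays, but their summed signal did not. Of 11 markers 10 could be tested, and 9 lay below 0 in R26Y hybrids (median log2 difference -1.31), 8 in GFAP-Cre hybrids (median -0.73) and 7 in FoxA2-Cre hybrids (median -2.08). In FoxA2-Cre hybrids 3 of the 10 lay lower and 2 higher without overlap, as did 10.6% and 26.5% of all genes. The 2 higher ones were Csf3r and Cxcr2. On that slide Cxcr2 was well above background only on replicate 1 of the hybrids and replicate 2 of the unfused cells. Ly6g lay above 0 with overlap. Its replicate 1 of the hybrids lay between the 2 unfused arrays, so the sign rests on replicate 2 of the hybrids. The summed scaled signal of 11 neutrophil markers was 54.0 to 66.1 in R26Y hybrids and 56.1 to 62.8 in GFAP-Cre hybrids, against 56.0 to 71.6 in pooled unfused cells, and 169 to 207 in FoxA2-Cre hybrids, against 132 to 161 in FoxA2-Cre unfused cells. These sums overlapped on the first slide and were higher in hybrids on the FoxA2-Cre slide, and they consist mostly of Csf3r, the receptor gene for granulocyte colony-stimulating factor, at 5.68 to 7.68 on all arrays. Without Csf3r, left out after its values were seen, the sum was 0.859 to 2.69 in R26Y and 2.12 to 2.79 in GFAP-Cre hybrids, against 4.06 to 5.14 in pooled unfused cells, and 1.32 to 3.95 in FoxA2-Cre hybrids, against 26.3 to 39.9 in FoxA2-Cre unfused cells, lower in hybrids with no overlap on either slide. Ltf, Mmp8, Mmp9, Ngp, S100a8 and S100a9 were not well above background on either FoxA2-Cre hybrid array. Most of them were also not well above background on an array of the FoxA2-Cre unfused cells. These were Mmp9 and Ngp on replicate 1, and Ltf, Mmp8, Mmp9 and S100a8 on replicate 2. Of these genes only S100a9 was well above background on both unfused arrays. The part of the neutrophil share in the Mpo difference was not tested.

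Among other blood cells, the summed markers of progenitors, of monocytes and macrophages and of basophils and mast cells overlapped between hybrids and unfused cells on each slide. The 9 progenitor markers summed to 0.773 to 0.903 in R26Y, 0.802 to 0.837 in GFAP-Cre and 0.928 to 0.990 in FoxA2-Cre hybrids, against 0.745 to 0.852 in pooled and 0.745 to 1.35 in FoxA2-Cre unfused cells. Of the 9 monocyte and macrophage markers, 8 were on the array, and they summed to 4.18 to 4.62, 4.01 to 4.34 and 2.14 to 5.25 in the same hybrids, against 4.11 to 4.25 and 4.23 to 5.86 in the unfused cells. The 6 basophil and mast cell markers, which bear on Ctsg, summed to 0.0373 to 0.268 in R26Y, 0.253 to 0.331 in GFAP-Cre and 0.0668 to 0.196 in FoxA2-Cre hybrids, against 0.255 to 0.365 in pooled and 0.0341 to 3.44 in FoxA2-Cre unfused cells. On the FoxA2-Cre slide the only one of these 6 well above background was Fcer1a on replicate 2 of the unfused cells, at 1.74. The overlap of their sums there thus compares background levels and this spot. On replicate 2 of the R26Y hybrids 1 of the 6 was well above background. Ptprc, the pan-leukocyte gene, was well above background on all 10 arrays. Eosinophil markers summed to 1.40 to 1.84 in R26Y and 2.15 to 2.38 in GFAP-Cre hybrids, against 2.03 to 2.11 in pooled unfused cells, thus on opposite sides of it. Erythroid markers summed to 0.132 to 0.136 and 0.109 to 0.201 in the same hybrids, against 0.104 to 0.107, and lymphoid markers to 0.585 to 0.722 in GFAP-Cre hybrids, against 0.483 to 0.572.

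Marker sums of brain and vessel cells also separated some groups. Microglia markers summed to 75.3 to 187 in FoxA2-Cre hybrids, against 25.1 to 29.9 in FoxA2-Cre unfused cells. Astrocyte markers summed to 1.03 to 1.31 in GFAP-Cre hybrids, against 1.87 to 2.05 in pooled unfused cells. In R26Y hybrids the sums were 0.304 to 0.478 for oligodendrocytes, 0.863 to 1.17 for dopaminergic neurons and 0.792 to 0.920 for endothelium, against 0.526 to 0.671, 1.20 to 1.31 and 0.948 to 1.01 in pooled unfused cells. All other sums overlapped, although on the FoxA2-Cre slide many of the markers were not well above background. The part of these cell types in the member levels was not tested.

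Whether the R26Y and GFAP-Cre hybrids, which lie on 1 slide, differ in these genes was tested with limma. The log2 differences of this contrast do not use the unfused arrays. Their SE and p do, through the shared estimate of the spread. Recipient and graft cells both differ between these hybrids and cannot be told apart. None of the 4 genes passed (0 called), and neither did any other gene (0% of 32209, with 887 at an unadjusted p under 0.05). Mpo averaged -6.15 ± 0.17 in GFAP-Cre hybrids and -6.60 ± 1.06 in R26Y hybrids (SD, n = 2 each), a log2 difference of 0.45 ± 1.05 (SE, limma adjusted p 1.00). Prtn3 averaged -3.08 ± 0.68 in GFAP-Cre hybrids and -4.22 ± 1.68 in R26Y hybrids, a difference of 1.13 ± 1.13 (SE). For Ctsg and Elane the differences were 0.092 ± 0.77 and -0.40 ± 1.68 (SE), and the adjusted p in limma was 1.00 for all 4 genes. The arrays of both groups overlapped for each of the 4, while 20.2% of all genes lay higher and 7.49% lower in GFAP-Cre hybrids without overlap, and the median of all genes was 0.29. Standard errors above 0.7 on the log2 scale leave differences of several fold within reach in either direction, and the signs for Mpo and Ctsg differed between scalings.

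The unfused cells of the 2 slides differed more. Mpo was 1.67 ± 0.17 in FoxA2-Cre unfused cells and -2.29 ± 2.26 in pooled unfused cells (SD, n = 2 each), a log2 difference of 3.97 ± 1.05 (SE), or 15.6-fold, with both FoxA2-Cre arrays above both pooled arrays. This held for the 3′ probe: the coding probe differed by -0.64 ± 0.64 (SE), with both FoxA2-Cre arrays below both pooled arrays and not well above background, and the mean of both probes differed by 1.66. Without replicate 1 of the pooled unfused cells the 3′ probe differed by 5.57, and without replicate 2 by 2.37. Prtn3 and Ctsg went the other way: the difference was -2.73 ± 1.13 (SE) for Prtn3, at least 5.87-fold lower in FoxA2-Cre unfused cells, and -1.71 ± 0.77 (SE) for Ctsg, in each case with no overlap of the arrays. Elane differed by 1.19 ± 1.68 (SE) with overlapping arrays. None of the 4 passed (0 called, against 0.168% of all genes): the adjusted p in limma was 0.191 for Mpo (unadjusted 0.00567), 0.274 for Prtn3 (unadjusted 0.0436), 0.304 for Ctsg (unadjusted 0.0597) and 0.763 for Elane.

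Non-overlapping arrays were frequent in that contrast, at 14.9% of all genes on the higher side, where Mpo was, and 42.6% on the lower side, where Prtn3 and Ctsg were. The median difference of all genes was -0.46, and it lay between -1.24 and 0.72 under other scalings. Under each of these the sign stayed positive for Mpo and negative for Prtn3 and Ctsg. In the authors' deposited matrix, whose slides have different medians, 16477 of the 32209 genes passed. Prtn3 (-2.31, limma adjusted p 0.0113) and Ctsg (-2.21, limma adjusted p 0.0176) were among them. A difference between slides in that matrix holds the offset between their medians, so these p-values do not single out Prtn3 and Ctsg. FoxA2-Cre arrays were also the dimmer ones, and the pooled unfused cells held graft cells of both kinds. Depth, slide, recipient and graft cells cannot be told apart here.

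By mean level, Mpo (3′ probe) was highest in FoxA2-Cre unfused cells, then pooled unfused cells, GFAP-Cre hybrids, FoxA2-Cre hybrids and R26Y hybrids, with no overlap between the 2 unfused groups or between pooled unfused cells and GFAP-Cre hybrids, and overlap among the hybrids. Prtn3 was ordered as pooled unfused cells, GFAP-Cre hybrids, FoxA2-Cre hybrids, R26Y hybrids and FoxA2-Cre unfused cells, and neighbours overlapped throughout. Ctsg ran from pooled unfused cells through GFAP-Cre hybrids, R26Y hybrids and FoxA2-Cre unfused cells to FoxA2-Cre hybrids, with a gap only between R26Y hybrids and FoxA2-Cre unfused cells. Elane ran from FoxA2-Cre unfused cells through pooled unfused cells, R26Y hybrids and GFAP-Cre hybrids to FoxA2-Cre hybrids, with overlap at each step. The 4 genes therefore had 4 different orders. Mpo, on its 3′ probe only, was the one gene of the set for which all unfused arrays lay above all hybrid arrays. The share of all genes with such a separation was not counted. These orders cross slides with unlike background: the lowest level well above it was -5.02 and -3.47 on FoxA2-Cre hybrid arrays, against -7.29 and -6.78 on R26Y hybrid arrays. Mpo (3′ probe) and Ctsg in FoxA2-Cre hybrids and Prtn3 in FoxA2-Cre unfused cells were not well above background, so their places are not firm. Across the 10 arrays, after the mean of each slide was taken off, Pearson's r between the genes ranged from -0.51 for Elane and Prtn3 to 0.68 for Mpo (3′ probe) and Ctsg, and was -0.90 between the 2 Mpo probes and -0.58 between the Mpo coding probe and Ctsg. These describe arrays that share slides and groups.

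Among 20060 genes with a symbol, the 5 whose levels ran most like Mpo (3′ probe) over the 10 arrays after slide means were taken off were Def8 (Pearson's r 0.96), Nipsnap3b (0.95), S100a9 (0.93), Insrr (0.93) and Usp21 (0.92). For Ctsg they were Cs (0.94), Rnf25 (0.93), Pomk (0.92), Tmem270 (0.91) and Gamt (0.89). For Elane they were Cog4 (0.96), Rab44 (0.95), Igsf10 (0.93), Gm5637 (0.92) and Rabac1 (0.91). For Prtn3 they were 3110021A11Rik (0.99), 1700120E14Rik (0.99), BC031181 (0.98), Zdhhc19 (0.98) and Olfr1130 (0.98). No gene of the set was among the 5 of another, and S100a9, which encodes a calcium-binding protein of the neutrophil cytosol, was the one neutrophil marker named by this rule. An r above 0.9 was reached by 0.0847% of these genes with Mpo, 1.26% with Prtn3, 0.0199% with Ctsg and 0.0449% with Elane, over arrays that share 2 slides.

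Among the genes that work with the granule proteases, Ctsc and Srgn had differences below 0 in all 3 hybrid types, and neither passed in limma in any of them. Ctsc, which activates the proteases, differed by -0.81 ± 0.52 and -0.48 ± 0.52 (SE) in R26Y and GFAP-Cre hybrids. In FoxA2-Cre hybrids neither Ctsc spot was well above background, and 1 of 2 was in FoxA2-Cre unfused cells, so that its -0.42 compares levels near background. Srgn, which holds them in the granule, was -6.72 and -5.68 in FoxA2-Cre hybrids, neither well above background, against -2.13 and 3.99 in FoxA2-Cre unfused cells, at least 36.2-fold lower. In R26Y and GFAP-Cre hybrids Srgn differed by -1.13 ± 1.71 and -0.69 ± 1.71 (SE). Prss57, a further serine protease of the same granules, differed by 0.50, 0.31 and 0.85 in the 3 hybrid types (SE 0.74 each), the lysozyme gene Lyz2 by 0.15, 0.59 and -1.01 (SE 0.73), and Ms4a3, a membrane protein gene of granulocyte-monocyte progenitors, by -2.41 and 0.0030 (SE 2.07) in R26Y and GFAP-Cre hybrids. On the FoxA2-Cre slide Ms4a3 was well above background on 1 array, replicate 1 of the unfused cells.

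Of the 16 azurophil granule genes outside the set, 0 were called higher and 0 lower by limma in any of the 5 comparisons. The share of all genes called was 0% in R26Y and GFAP-Cre hybrids and 0.531% in FoxA2-Cre hybrids. It was 0% in GFAP-Cre against R26Y hybrids and 0.168% in FoxA2-Cre against pooled unfused cells. Their median log2 differences were -0.26, 0.19 and -0.66 in R26Y, GFAP-Cre and FoxA2-Cre hybrids, beside -0.26, 0.035 and 0.36 for all genes. In FoxA2-Cre hybrids 11 of the 16 lay below 0 and 5 above, in R26Y hybrids 9 and 7, and in GFAP-Cre hybrids 5 and 11. In GFAP-Cre against R26Y hybrids the median was 0.44 (all genes 0.29), and in FoxA2-Cre against pooled unfused cells it was 0.49 (all genes -0.46).

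Of 12 inhibitor genes, 10 could be tested and 0 were called in any comparison, against 0% to 0.531% of all genes. Their medians were -0.62, -0.014 and 0.22 in R26Y, GFAP-Cre and FoxA2-Cre hybrids, beside -0.26, 0.035 and 0.36 for all genes. Serpinb1a, an intracellular serpin that blocks these proteases, was -3.09 and 0.62 in R26Y hybrids and -3.58 and -4.14 in GFAP-Cre hybrids, against -2.33 and -3.32 in pooled unfused cells. A single R26Y hybrid array was thus the highest of the 10. Slpi, a secreted inhibitor of elastase and cathepsin G, differed by -1.03, -0.66 and 0.056 (SE 0.72). Like several other inhibitors, it was not well above background on any FoxA2-Cre array. In FoxA2-Cre against pooled unfused cells the inhibitors had a median of -1.55 (all genes -0.46), and in GFAP-Cre against R26Y hybrids of 0.57 (all genes 0.29).

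The 14 regulators and cytokine receptor genes of granulocytes were likewise not called (0 in any comparison, against 0% to 0.531% of all genes). Their medians were -0.24, 0.0036 and 0.15 in R26Y, GFAP-Cre and FoxA2-Cre hybrids, beside -0.26, 0.035 and 0.36 for all genes. The median was 0.37 both in GFAP-Cre against R26Y hybrids (all genes 0.29) and in FoxA2-Cre against pooled unfused cells (all genes -0.46). Myb, a transcription factor of haematopoietic progenitors, differed by -2.55, -2.18 and -2.70 in the 3 hybrid types with an SE of 2.04. Its level was -3.97 and -8.66 in R26Y and -6.0 and -5.88 in GFAP-Cre hybrids, against -3.27 and -4.25 in pooled unfused cells, so that the GFAP-Cre hybrids alone lay below both. On the FoxA2-Cre slide it was well above background on 1 unfused array. Cebpa, a master factor of granulocyte progenitors, differed by -0.12, 0.46 and -1.79 (SE 1.39), Cebpe, the factor of later granule stages, by -0.22, 0.13 and 0.87 (SE 0.69), and Spi1 by -0.68, 0.054 and -1.03 (SE 0.61). Runx1 and the repressor gene Gfi1 were not well above background on any FoxA2-Cre array. On the other slide Runx1 differed by -0.25 and 0.29 (SE 0.65) and Gfi1 by -1.56 and -0.050 (SE 1.10) in R26Y and GFAP-Cre hybrids.

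Of 17 other haem peroxidase genes and genes of the Prtn3, Elane and Ctsg neighbourhoods, such as the eosinophil peroxidase gene Epx, Lpo, Cfd and the granzyme and mast cell protease genes, 14 could be tested and 0 were called in any comparison. Of all genes 0% to 0.531% were called in these comparisons. The medians of the listed genes were -0.59, 0.054 and 0.47 in R26Y, GFAP-Cre and FoxA2-Cre hybrids, beside -0.26, 0.035 and 0.36 for all genes. They were 0.61 in GFAP-Cre against R26Y hybrids (all genes 0.29) and -0.25 in FoxA2-Cre against pooled unfused cells (all genes -0.46).

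Genes of the later granules and cytosol of neutrophils are transcribed after the primary granule genes. Of 10 such genes 9 could be tested, and 9 of 9 lay below 0 in R26Y hybrids (median -1.95), 7 of 9 in GFAP-Cre hybrids (median -0.63) and 8 of 9 in FoxA2-Cre hybrids (median -3.29), beside 64.2%, 46.6% and 36.5% of all genes. Lower without overlap were 6, 4 and 3 of the 9 in R26Y, GFAP-Cre and FoxA2-Cre hybrids, as were 19.5%, 14.4% and 10.6% of all genes. The FoxA2-Cre median is the Ngp difference, for which replicate 2 of the unfused cells (1.25) was the only FoxA2-Cre spot well above background. On that slide Ltf, Mmp8 and S100a8 were well above background only on replicate 1 of the unfused cells, and Retnlg on no array. Only S100a9 in FoxA2-Cre hybrids fell past the threshold (1 called lower, against 0.478% of all genes called lower). It was -6.78 and -3.61 in FoxA2-Cre hybrids, not well above background, against 3.20 and 3.61 in FoxA2-Cre unfused cells, at least 200.6-fold lower (log2 difference -8.60 ± 1.33 SE, limma adjusted p 0.0470). Camp, the cathelicidin gene of secondary granules, differed by -1.95, -1.29 and -6.17 (SE 1.02) in R26Y, GFAP-Cre and FoxA2-Cre hybrids without passing. In GFAP-Cre against R26Y hybrids 9 of 9 lay above 0 (median 0.94, all genes 0.29) and 0 were called, against 0% of all genes. In FoxA2-Cre against pooled unfused cells the median was 1.33 (all genes -0.46). These genes are largely the neutrophil markers given above. The earlier results of these arrays had already shown S100a9 beside Mpo, so its adjusted p is a description and does not test it. The call was not checked under the other settings.

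**Figure D3:**
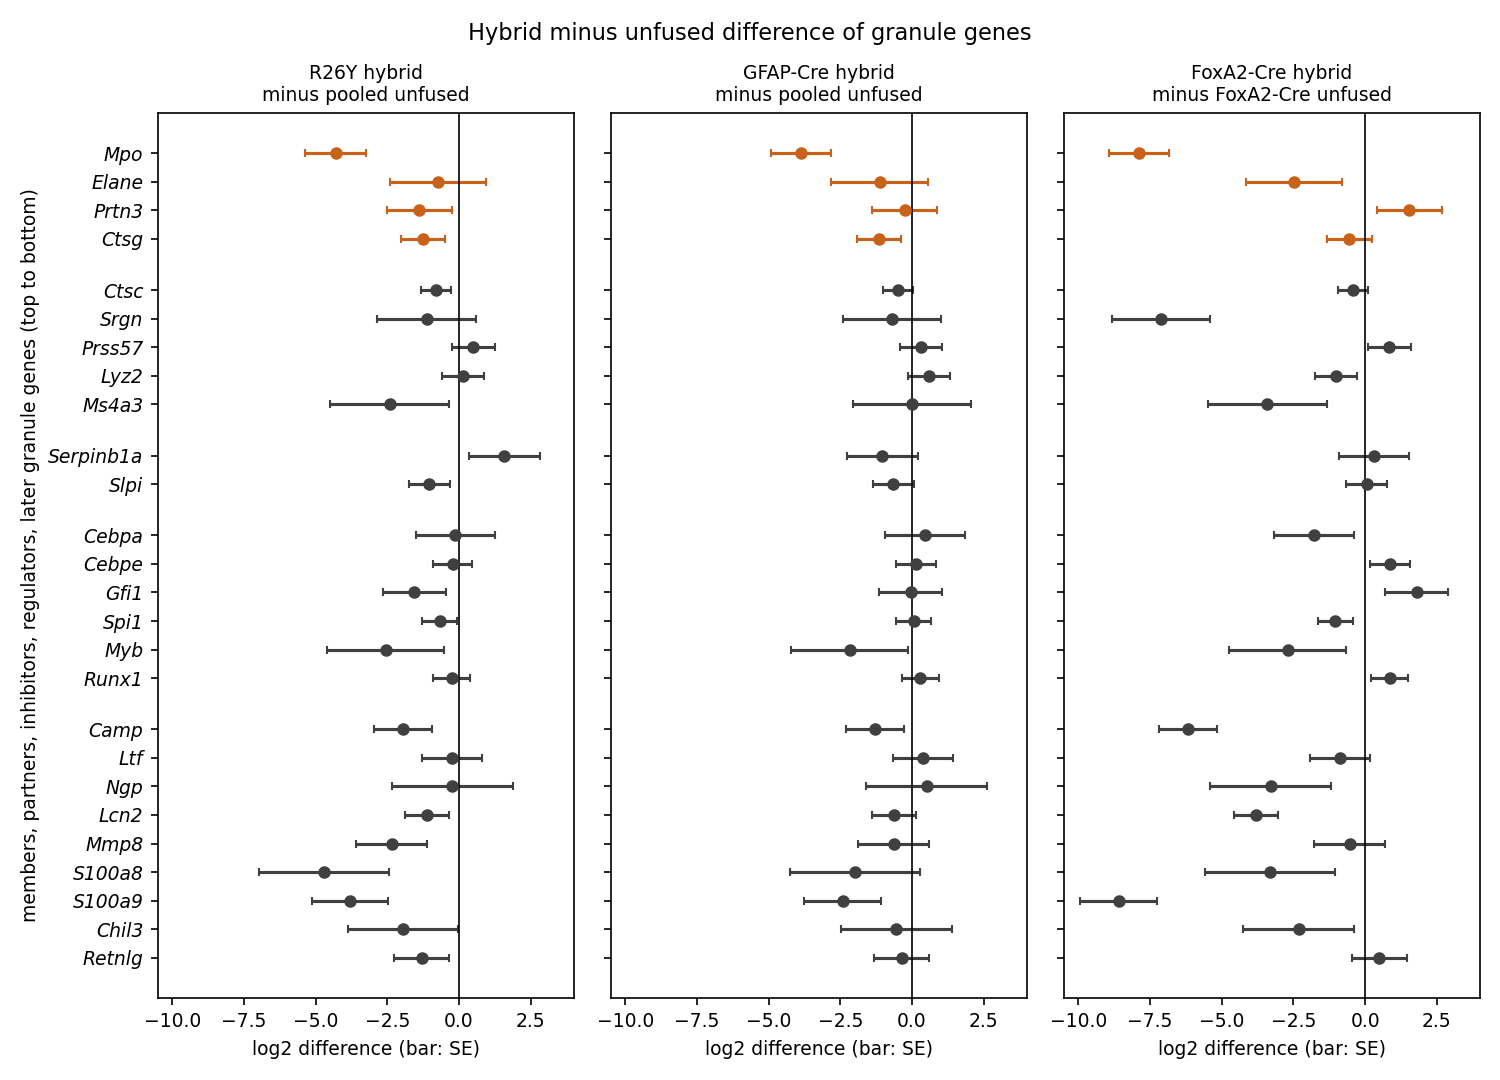
Hybrid minus unfused log2 difference (horizontal axis, bars are SE) of the primary granule genes in orange and of named partners, inhibitors, regulators and later granule genes in grey, with a panel for each hybrid type. Mpo (3′ probe) stands at -4.31, -3.86 and -7.89 in R26Y, GFAP-Cre and FoxA2-Cre hybrids, while Elane, Prtn3 and Ctsg lie between -2.48 and 1.55, and S100a9 and Srgn reach -8.60 and -7.13 in FoxA2-Cre hybrids.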

How the data were processed

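The deposited spot tables come from Agilent Feature Extraction 10.7.3.1 and hold intensities of each spot, per the file headers: a processed signal, corrected by that software for background and for trends across its array, and the mean and background signals. Marks of 0 or 1 beside them say whether a spot was well above background or non-uniform. A further deposited matrix gives log2 values of the authors, and the tool behind it is not given in the sources used here. Agilent Feature Extraction is also named in the submitters' processing notes. Per the labels' protocols, a whole-transcriptome kit amplified the RNA, and Cy3 labelling took 500 ng of cDNA. Files were matched to samples as recorded with the series, with 0 columns of unmatched samples; 1 file name, that of FoxA2-Cre unfused replicate 2, carries the sample number of another sample.

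Processed signals were divided by the array's 75th percentile among spots well above background on every one of the 10 arrays, and log2 was taken. Non-uniform spots were left out, spots of a probe were averaged, and probes well above background on at least 2 arrays were kept. Each gene was represented by its brightest probe, the one with the highest mean over the 10 arrays. Gene names were updated through RefSeq accessions (27428 probes matched, 28253 did not and kept the name in the file). The 32209 genes were fitted with limma 3.58.1 in R 4.3.3 as means of 5 groups sharing 1 estimate of the spread (5 residual degrees of freedom), with two-sided tests and Benjamini-Hochberg adjustment at 0.05. The fit was tested on simulated data. Folds are given as at least N where no array of a group was well above background and both arrays of the other were, with the background level in its place. The number of arrays limits the precision, and p-values measure the spread between pools of mice.

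The genes and the lists were chosen with earlier results of these data known. Named are the 4 genes, 13 partners, inhibitors and regulators, called list members and the 5 genes most like each member; Camp and Csf3r were added after their values were seen. Alternatives were normexp background correction (offset 50), other percentiles and quantile scaling, the authors' log2 matrix, other filters, the mean of a gene's probes, array weights, blocks of replicate number and slide row, leaving out each array and, chosen after seeing the data, the other Mpo probe and the marker sum without Csf3r.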

Additional observations from a re-analysis of the deposited data

How the results depend on the processing

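For GFAP-Cre against R26Y hybrids 0 genes were called in every setting, the replicate block and the slide row block included, except without replicate 1 of the R26Y hybrids, which gave 2180 and a range of 0 to 2180 over single arrays left out. The signs of the members in that contrast were not stable. Mpo was -0.16 with normexp, -0.17 with quantile scaling, -0.13 in the authors' matrix and -0.30 to 1.20 over single arrays left out. Ctsg was -0.22 with normexp, -0.27 with the 75th percentile over all probes, -0.32 with quantile scaling, -0.45 in the authors' matrix and -0.032 to 0.22 over single arrays left out. Prtn3 ranged from -0.057 to 2.32 and Elane from -1.05 to 0.25, with the reversals at -0.057 for Prtn3 and 0.25 for Elane without replicate 2 of the R26Y hybrids and at 0.12 for Elane without replicate 2 of the GFAP-Cre hybrids.

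For FoxA2-Cre against pooled unfused cells, 54 genes were called (10 higher, 44 lower). The count was 16 with the 75th percentile over all probes, 27 with quantile scaling, 850 with array weights and 0 with either the replicate block or the slide row block. With normexp it was 50, of which 35 were higher and 15 lower. It was 16477 in the authors' matrix, whose slides have different medians. Over single arrays left out it ranged from 0 (either pooled unfused or either GFAP-Cre hybrid array) to 2677 (either R26Y hybrid array), with 221 without replicate 2 of the FoxA2-Cre unfused cells. Elane reversed to -0.19 in the authors' matrix and to -1.36 without replicate 1 of the FoxA2-Cre unfused cells, in a range up to 3.75. The cause of these changes was not tested. Deviations of same-numbered replicates from their group means correlated at -0.071 to 0.073 between groups, so the numbers do not pair the samples.

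The number of members with hybrids below unfused cells was 1 with normexp and 1 in the authors' matrix for R26Y hybrids (3 to 4 over single arrays left out). For GFAP-Cre hybrids it was 2 with the 75th percentile over all probes, with quantile scaling and in the authors' matrix, 0 with the other Mpo probe, and 1 to 4 over single arrays left out. For FoxA2-Cre hybrids it was 2 with quantile scaling, 0 with the other Mpo probe and 1 to 3 over single arrays left out. The share of all genes was not counted under these settings. Leaving out an array of the comparison sets 1 array against 2, which separate more readily. The upper ends of these ranges therefore say nothing about the members. The Mpo difference on the 3′ probe, or on the mean of its probes, stayed below 0 in 20 of 20 settings for each hybrid type, from -5.91 to -1.85 for R26Y, -5.46 to -1.62 for GFAP-Cre and -8.62 to -3.06 for FoxA2-Cre hybrids. With 2 arrays a group and most FoxA2-Cre spots near background, signal limits every value on that slide.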
